A study of Caenorhabditis elegans with 2 samples.

Results

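The hypoxia pathway genes described here are hif-1, aha-1, egl-9, vhl-1, rhy-1, cul-2 and cysl-1, 7 of the 19973 protein-coding genes of the *C. elegans* annotation. They were selected on peak values already seen in these data, since high-signal peaks near hif-1 and egl-9 drew attention to the pathway. Peak counts and signals at these genes are therefore descriptions and carry no test. A summit, the position of highest enrichment in a peak, was assigned to a gene when it lay in the gene or within 5 kb upstream of its start, a span called the window below.

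The peaks came from a chromatin immunoprecipitation (ChIP-seq) experiment on whole L2 larvae. There was 1 group with 2 biological replicates. Animals of strain OP355 have the genotype unc-119(tm4063) III; wgIs355 and were collected with both sexes pooled, at an age given as unknown. They carry an eGFP-tagged transcription factor as a transgene, and the labels name that factor both as mdl-1 and as ZK337.2. The IDR peak of highest signal, 986, had mdl-1 as its nearest start, as did others, among them those ranked 7, 9 and 19. These peaks do not settle which name is right, and their origin was not tested. The series has no second genotype, treatment or time. A possible control is listed in the labels and was not used here. Nothing in the labels states the cells in which the transgene is expressed. In whole animals, weak binding in many cells and strong binding in few cells cannot be told apart.

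In *C. elegans* the transcription factor HIF-1 works as a dimer with AHA-1, the worm ARNT protein, and binds hypoxia response elements with the core ACGTG. When oxygen is present the prolyl hydroxylase EGL-9 modifies HIF-1, and VHL-1, in a ubiquitin ligase built on the cullin CUL-2, marks it for destruction. RHY-1, a predicted membrane acyltransferase, represses HIF-1, and CYSL-1, a protein related to cysteine synthases, binds and inhibits EGL-9. Mad-family proteins such as MDL-1 bind the E-box CACGTG together with a Max partner, and CACGTG contains the letters ACGTG on both strands.

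The sequences below are the 101 bases centred on the summits of hif-1, egl-9, cysl-1 and rhy-1, shown because they include the 3 highest-signal IDR summits of the pathway, at hif-1 and egl-9, the separate upstream IDR summits of hif-1 and cysl-1, and the strongest rhy-1 summit, which is below the IDR set. They are on the plus strand of WBcel235 (ce11), taken from the RefSeq copy of that assembly, and read 5′ to 3′. Capitals mark the E-box CACGTG as well as the core ACGTG on either strand (its reverse complement reads CACGT) and the motif CTGCGTCT on either strand, a sequence frequent at worm promoters. Each name gives the gene and the distance from its annotated start.

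hif-1, 2045 bp upstream, chrV:20778312-20778412: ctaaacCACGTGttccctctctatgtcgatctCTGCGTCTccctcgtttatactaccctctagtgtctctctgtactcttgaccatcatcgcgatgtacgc
egl-9, 1754 bp upstream, chrV:10466713-10466813: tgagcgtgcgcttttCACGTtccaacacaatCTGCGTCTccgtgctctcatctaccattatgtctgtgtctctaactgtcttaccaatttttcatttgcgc
hif-1, 1996 bp downstream, chrV:20782353-20782453: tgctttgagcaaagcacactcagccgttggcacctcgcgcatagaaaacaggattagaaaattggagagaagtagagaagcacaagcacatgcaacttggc
hif-1, 3467 bp upstream, chrV:20776890-20776990: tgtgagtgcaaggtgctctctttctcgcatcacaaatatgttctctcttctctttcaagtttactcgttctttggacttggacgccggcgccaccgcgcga
cysl-1, 4222 bp upstream, chrX:9958705-9958805: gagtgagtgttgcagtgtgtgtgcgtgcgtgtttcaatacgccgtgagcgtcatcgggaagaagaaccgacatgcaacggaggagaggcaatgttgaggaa
cysl-1, 2227 bp upstream, chrX:9956710-9956810: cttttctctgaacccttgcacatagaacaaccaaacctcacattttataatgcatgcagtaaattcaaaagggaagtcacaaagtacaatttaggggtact
rhy-1, 959 bp upstream, chrII:9160370-9160470: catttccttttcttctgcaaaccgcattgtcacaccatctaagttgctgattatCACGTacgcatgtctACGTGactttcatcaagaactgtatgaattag

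The deposited lists are the authors' optimal set by irreproducible discovery rate (IDR, 2103 peaks), a relaxed list of the pooled replicates (28651 peaks), and a relaxed list of 30000 peaks for each replicate. Each peak's signal is the authors' value on an unstated scale, so signals are compared only within a list, and the rank by signal is given beside them. The IDR signals ran from 32.5 to 986 with a median of 51.5. Depth is unknown for both replicates, so no interval for a peak's signal can be given. A replicate's top list means its 2103 highest-signal peaks.

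The pathway fell into 4 genes with IDR peaks and 3 without. The transcription factor gene hif-1 had 4 IDR summits, cysl-1 had 2, and aha-1 and egl-9 had 1 each, while vhl-1, rhy-1 and cul-2 had 0. An IDR summit lay in the window of 14.4% of all protein-coding genes, a background given beside the 4 of 7 members for orientation, because the members were chosen from these peaks. At 2 or more IDR summits the count was 2 of 7 members against 2.72% of genes, and at 4 or more it was 1 of 7 against 0.25%. The latter member, hif-1, reached 4 only because 2 of its entries share the same interval. Entries were counted in the same way for all genes. In the top list of replicate 1 the same number of members, 4, had a summit (14.2% of genes), and in that of replicate 2 also 4 (14.4% of genes).

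**Figure D1:**
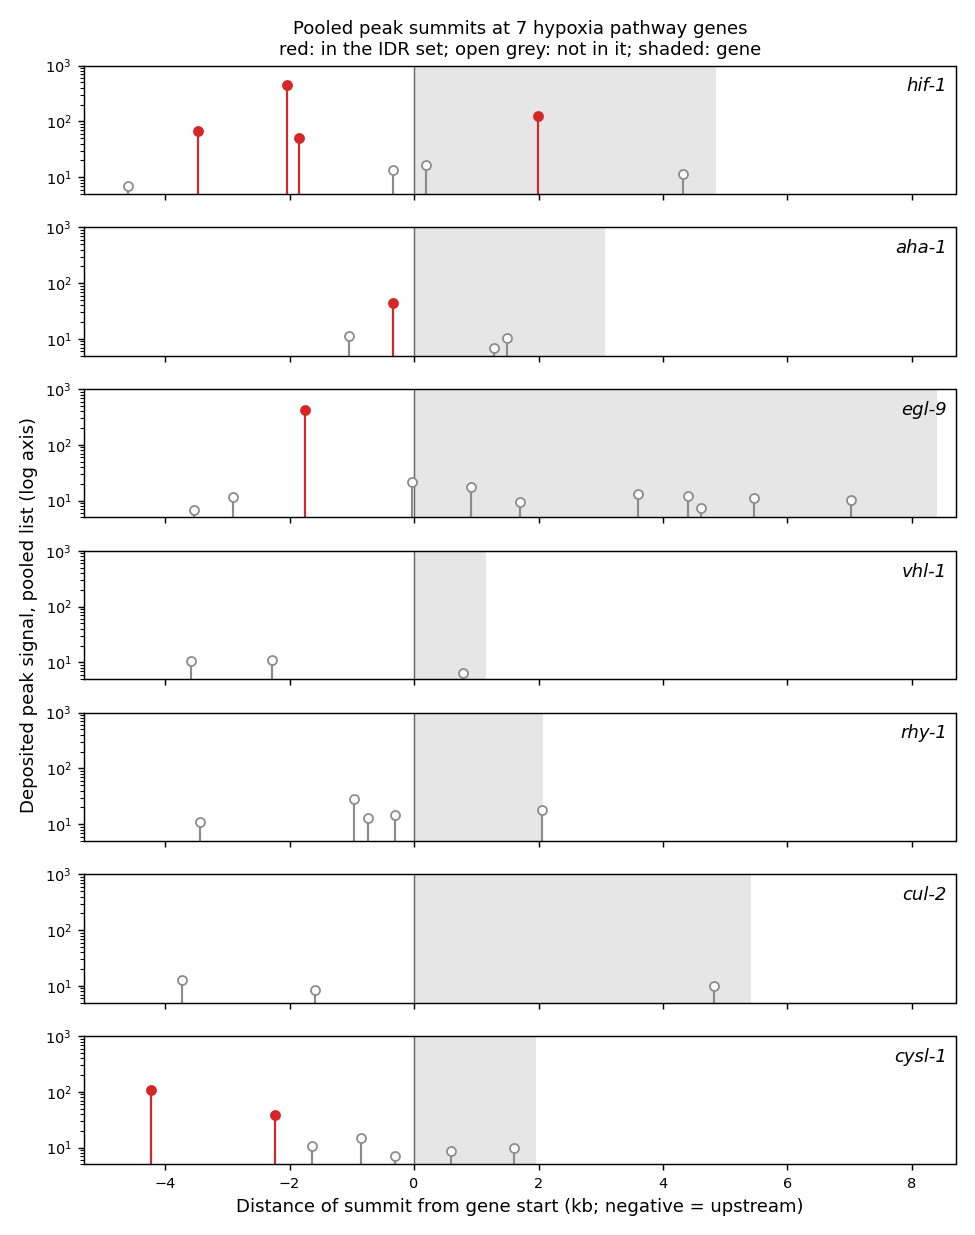
Summits of the pooled list in the windows of the 7 genes, by distance from the gene start (kb, negative is upstream) and deposited peak signal (log axis). Red points are in the IDR set, open points are not, and shading marks the gene; the highest points are 448 at hif-1 and 429 at egl-9, and vhl-1, rhy-1 and cul-2 have open points only.

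Genes with the longest windows held a summit more often than the others. The window of hif-1 spans 9854 bp, that of egl-9 13399 bp and that of cul-2 10415 bp, all in the longest of 4 nearly equal groups of genes by window length, where 22.2% had an IDR summit. The windows of aha-1 (8073 bp) and rhy-1 (7070 bp) belong to the group where 13.5% had one, that of cysl-1 (6955 bp) to the group with 10.5%, and that of vhl-1 (6163 bp) to the group with 11.4%. Having 4 or more IDR summits was rare even among the longest windows, at 0.841% of genes, a count that hif-1 reached with 2 entries on the same interval. The long window of cul-2 held no IDR summit, and the shorter one of cysl-1 held 2.

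**Figure D2:**
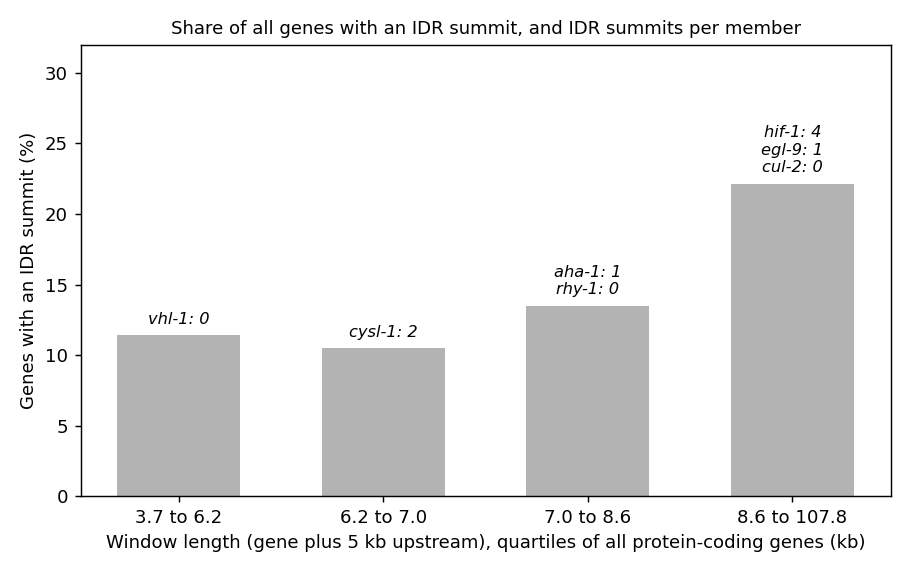
Bars give the percentage of protein-coding genes with an IDR summit in each quartile of window length (gene plus 5 kb upstream, kb). Labels above each bar name the members in that quartile with their number of IDR summits; the share is highest, at 22.2%, in the quartile that holds hif-1, egl-9 and cul-2.

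The highest-signal peak of the pathway lay upstream of hif-1 (WBGene00001851, V, 20780407 to 20785260, plus strand). Its summit was 2045 bp upstream of the gene start, in intergenic sequence. Its signal was 150 in replicate 1 (rank 19), 301 in replicate 2 (rank 14) and 448 in the pool (rank 15). It was 7.20 times the median of the top list in replicate 1 and 9.14 times in replicate 2, so both replicates placed it far above their typical peak. The replicate 1 summit coincided with the pooled one, and that of replicate 2 lay 18 bp away.

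A second IDR entry covers the same interval, V, 20778203 to 20778580, with its summit 1844 bp upstream of hif-1 and 201 bp from the first summit. Its signal was 51.4 in the pool (rank 1057) and 22.9 in replicate 1 (rank 918). Replicate 2 had no summit within 100 bp of it, and the only replicate 2 peak that overlapped it was the strong one just described. The 4 IDR entries of hif-1 thus cover 3 separate intervals.

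Inside the gene, a summit lay 1996 bp downstream of the hif-1 start. This position is in an intron of the longer transcripts and 69 bp upstream of the start of the shorter transcript F38A6.3c. Its signal was 46.3 in replicate 1 (rank 271), 71.6 in replicate 2 (rank 305) and 124 in the pool (rank 249), and its summits in the lists were at most 2 bp apart. The peak was narrow, at 133 bp, as were 186 of the 2103 IDR peaks at under 200 bp. The gene has 6 annotated transcripts with 4 distinct starts.

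The farthest upstream IDR peak of hif-1 had its summit 3467 bp before the start. Its signal was 38.0 in replicate 1 (rank 383), 32.6 in replicate 2 (rank 1083) and 67.9 in the pool (rank 676). Its nearest protein-coding start was not that of hif-1 but that of F38A6.4, 1571 bp away, an uncharacterized gene on the opposite strand. Around the hif-1 start itself the pooled list had only weak summits, 331 bp upstream (signal 13.2, rank 7971) and 192 bp downstream (16.5, rank 5377), neither in the IDR set. Peak signal at hif-1 was therefore highest about 2 kb to each side of the annotated start, with little at the start.

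The strongest peak of egl-9 (WBGene00001178, V, 10468517 to 10476915, plus strand), the gene of the HIF-1 prolyl hydroxylase, came directly after that of hif-1 in the IDR set. Its summit lay 1754 bp upstream of the start, with a signal of 131 in replicate 1 (rank 27), 294 in replicate 2 (rank 15) and 429 in the pool (rank 16). It was 6.29 and 8.92 times the median of the top lists of replicates 1 and 2. The nearest other IDR summit was 25127 bp away, so this peak stood alone, unlike the group at hif-1. The summit fell inside a pair of overlapping non-coding RNA genes of 145 bp on opposite strands, F22E12.9 and F22E12.10, 61 and 94 bp from their starts.

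The other peaks of egl-9 had far lower signals. A summit 32 bp upstream of its start had a signal of 21.6 in the pool (rank 3638) and −log10 q of 2.82, below the lowest IDR signal of 32.5. In replicate 1 it lay 58 bp upstream with a signal of 13.8 (rank 1987), inside the top list, and in replicate 2 it lay 8 bp upstream with a signal of 6.13 (rank 19096). The replicates therefore differed in how they ranked the peak at the egl-9 start. Across the whole window the pooled list held 11 egl-9 summits, replicate 1 held 13 and replicate 2 held 11, the most of any member in each list. Of these, 2, 9 and 3 had −log10 q of at least 2, the strong peak included. Besides the strong peak, the highest replicate 2 summit lay 5549 bp downstream of the start at 14.1 (rank 3867).

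**Figure D3:**
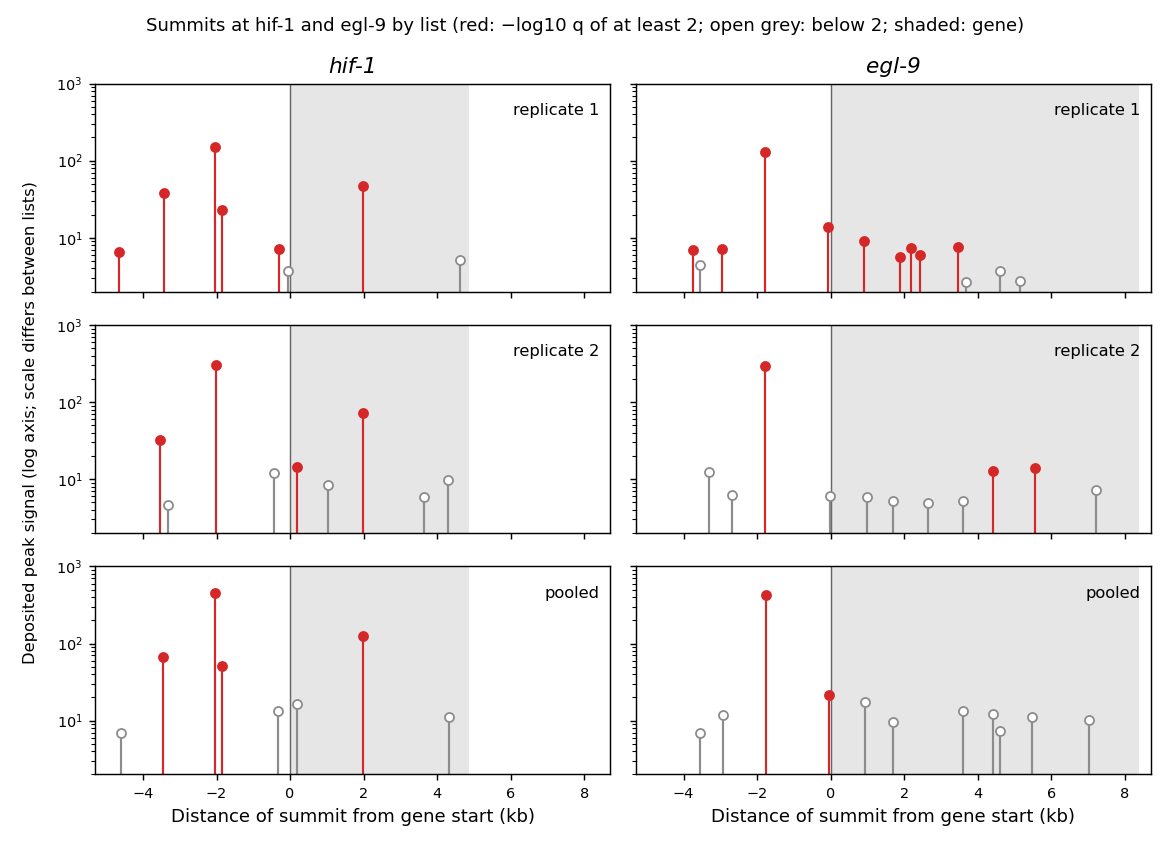
Summits at hif-1 (left) and egl-9 (right) in replicate 1, replicate 2 and the pooled list, by distance from the gene start (kb) and deposited signal (log axis, scale differs between lists). Red marks −log10 q of at least 2; the summit about 2 kb upstream is the highest in every panel, at 150 and 301 for hif-1 and 131 and 294 for egl-9 in replicates 1 and 2.

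These peaks of hif-1 and egl-9 belong to the 20 highest-signal IDR peaks. A summit of those 20 lay in the window of 28 genes, 0.14% of all, and of 2 of the 7 members. By rank the nearest others were the peaks at bcat-1, 4997 bp upstream of its start (signal 461, rank 13), tos-1, 105 bp upstream (456, rank 14), iff-2, 84 bp upstream (421, rank 17), and ppfr-1, 8171 bp downstream of its start (418, rank 18). Of the 20 summits, 14 lay over 1 kb from every protein-coding transcript start, both of these among them. Over the whole IDR set 43.4% of summits lay that far from a start, and 5 of the 8 member summits did.

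Summed over the window, IDR signal came to 691 for hif-1, 429 for egl-9, 148 for cysl-1 and 44.5 for aha-1. Only 10 genes had a higher sum than hif-1 and 49 a higher sum than egl-9, against 396 for cysl-1 and 1978 for aha-1. Among the 2874 genes with any IDR summit the median sum was 57.8. These sums share peaks between neighbours. The 3 upstream hif-1 summits also fall in the windows of F38A6.4 and F38A6.5, and that of egl-9 in the window of F22E12.3. Both of cysl-1 fall in the window of ZC506.1, and that of aha-1 in those of lid-1 and C25A1.15.

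The gene of the HIF-1 partner, aha-1 (WBGene00000095, minus strand), had a single IDR peak of moderate signal. Its summit lay 339 bp upstream of the start and 15 bp inside the small protein-coding gene C25A1.15. The signal was 18.1 in replicate 1 (rank 1316), 26.4 in replicate 2 (rank 1493) and 44.5 in the pool (rank 1325), below the IDR median of 51.5. The summits of the replicates lay 57 bp apart. The other 3 pooled summits in its window had signals from 6.94 to 11.4.

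Of the regulators of EGL-9 and HIF-1, cysl-1 (WBGene00007653, X, 9952579 to 9954533, minus strand) had its IDR peaks far upstream. The stronger summit, 4222 bp upstream, had a signal of 38.1 in replicate 1 (rank 381), 73.5 in replicate 2 (rank 287) and 109 in the pool (rank 322). That position is 205 bp upstream of the start of ZC506.1, a protein-coding gene on the opposite strand. The weaker summit, 2227 bp upstream of cysl-1 and 2200 bp upstream of ZC506.1, had a signal of 18.4 in replicate 1 (rank 1274), 15.5 in replicate 2 (rank 3319) and 38.7 in the pool (rank 1635). It was the only IDR peak of the pathway with no overlapping peak in one replicate's top list, that of replicate 2. Nearer the gene, the strongest pooled summit outside the IDR set lay 857 bp upstream at 15.0 (rank 6338), and replicate 1 had a summit 1637 bp upstream at 9.34 (rank 3664) with −log10 q of 3.39. Within cysl-1 itself the pooled signals reached at most 9.97.

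The gene of the repressor RHY-1, rhy-1 (WBGene00012324, II, 9161379 to 9163448, plus strand), had peaks just below the IDR set. Its strongest pooled summit lay 959 bp upstream of the start, with a signal of 27.7 (rank 2607) and −log10 q of 3.24. The corresponding summits had a signal of 12.8 in replicate 1 (rank 2239) and 15.9 in replicate 2 (rank 3140). A further summit 312 bp upstream had a signal of 14.5 in the pool (rank 6764), and the nearest replicate 2 summit, 286 bp upstream, had a signal of 16.8 in its own list (rank 2890). The nearest upstream summit of replicate 1 lay 733 bp from the start. At the far end of the gene, 2057 bp downstream of the start and overlapping the end of W07A12.8, a summit had a signal of 19.6 in replicate 2 (rank 2317) and 17.8 in the pool. The lowest IDR signal was 32.5, and the nearest IDR summit outside the rhy-1 window lay 48125 bp from its start.

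The 2 ligase genes had no IDR peak and no pooled summit with −log10 q of 2 or more. At vhl-1 (WBGene00006922, X, 11307356 to 11308518, plus strand), the substrate receptor, the 3 pooled summits had signals from 6.39 to 11.2, and the best ranked 10799 of 28651. The highest signal was 4.97 in replicate 1 and 8.85 in replicate 2, and no summit in any list had −log10 q of 2 or more. The nearest IDR summit outside its window lay 7483 bp upstream, with a signal of 54.3. At cul-2 (WBGene00000837, III, 13687269 to 13692683, plus strand), the scaffold, the 3 pooled summits had signals from 8.29 to 13.0. The highest, 3733 bp upstream in an intron of the neighbour dyf-2, had a counterpart 3722 bp upstream in replicate 2, with a signal of 14.2 (rank 3820) and −log10 q of 2.65, and no counterpart in replicate 1. Replicate 1 had its own best cul-2 summit 2392 bp downstream of the start, at 5.96 (rank 8123) and −log10 q of 2.19. These were the only cul-2 summits of the replicates with −log10 q of at least 2, and they lay at different places.

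With all pooled peaks of −log10 q of at least 2, rhy-1 joined the genes with peaks and the count was 5 of 7 members, against 28% of all genes. Every member had some summit in the full pooled list, as did 78.9% of genes. In all, the windows held 41 summits in the pool, 44 in replicate 1 and 39 in replicate 2. Of these, 11, 23 and 14 had −log10 q of at least 2.

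The replicates ranked the strongest member peaks alike, but the IDR set was itself drawn from both replicates, so this adds no independent support. Each of the 8 member IDR peaks had the same rank by signal in the pooled list as in the IDR set. Of the 8 member IDR peaks, 7 overlapped a peak in the top list of both replicates, as did 68.9% of all IDR peaks. The 7 include the hif-1 entry 1844 bp upstream, whose only overlap in replicate 2 is the neighbouring strong peak. With summits required to lie within 100 bp, the count was 6, and no share over all IDR peaks is given for that rule. The peak at 1844 bp upstream of hif-1, for which replicate 2 had no summit within 100 bp, and the weaker peak of cysl-1 were the exceptions. Replicate 1 ranked the upstream hif-1 peak at 3467 bp higher (383) than replicate 2 did (1083), whereas the intronic hif-1 peak and the stronger cysl-1 peak were ranked within about 100 places of each other.

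**Figure D4:**
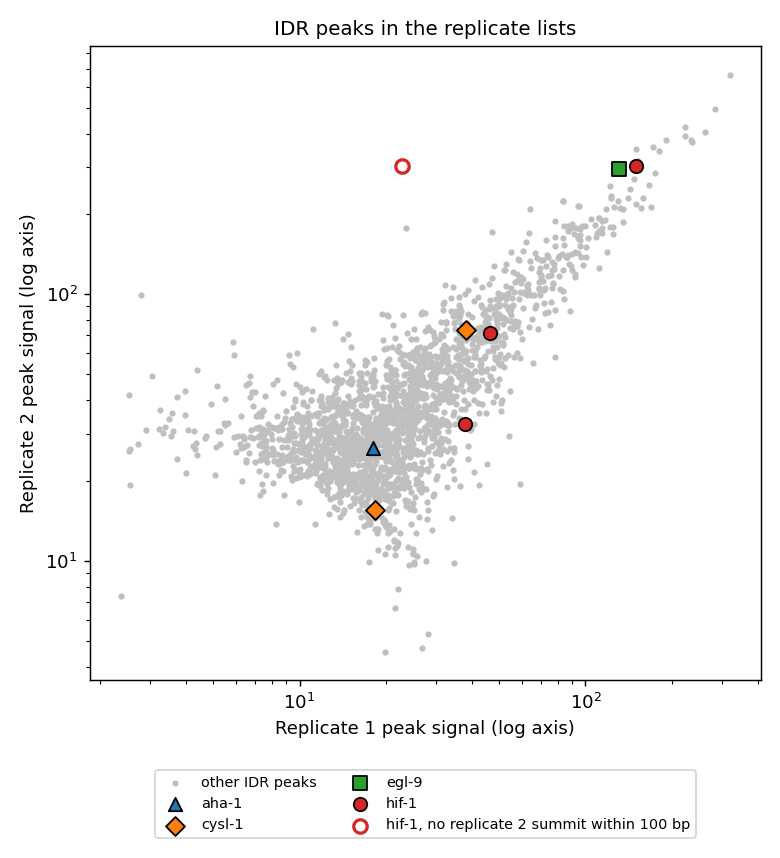
Signal of each IDR peak in replicate 1 and replicate 2 (log axes), taken from the overlapping replicate peak with the nearest summit; members are drawn as symbols. The strongest hif-1 and egl-9 peaks lie together at the upper right, and the open symbol is the hif-1 summit 1844 bp upstream, for which replicate 2 offers only the strong neighbouring peak of 301.

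The share of member summits with the E-box was near that of the whole IDR set. CACGTG lay within 50 bp of 1 of the 8 member IDR summits, and of 17.2% of all IDR summits. The summit with the site was that of the strongest hif-1 peak, whose printed sequence has the site 44 bp before the summit. The replicate 2 summit was 18 bp farther from it, so that within 50 bp of that summit there was no CACGTG. Over the full lists CACGTG lay within 50 bp of 1 of 41 pooled summits, 1 of 44 in replicate 1 and 0 of 39 in replicate 2.

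ACGTG, which includes every CACGTG, lay at 2 of the 8 IDR summits, against 28.6% of all. These were the strongest peaks of hif-1 and egl-9. At egl-9 the site 35 bp before the summit reads CACGT on the plus strand and is followed by T, so it is the ACGTG core without the full E-box. Below the IDR set, the rhy-1 sequence holds the core on each strand, 4 and 19 bp after the summit. The wider E-box CANNTG lay at 3 of the 8 (48.7% of all), and CACATG, which is the other strand of the motif CATGTG, lay 36 bp after the intronic hif-1 summit. At the strong egl-9 peak CATGTG lay 54 bp before the IDR summit and within 50 bp of the summit of each replicate.

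The strongest hif-1 and egl-9 peaks shared another sequence. CTGCGTCT lay within 50 bp of these 2 of the 8 summits, against 12.2% of all IDR summits, starting 18 bp before the hif-1 summit and 19 bp before the egl-9 summit, on the plus strand in both. In both the ACGTG core came first, with its first plus-strand base 26 bp before CTGCGTCT at hif-1 and 16 bp before it at egl-9. Both sequences together were found at 2.76% of all IDR summits and at 5 of the 20 highest-signal ones. This pair of motifs was singled out after its values were seen. CTGCGTCT was also present at the stronger cysl-1 peak, 83 bp before the IDR summit and within 50 bp of the replicate 1 summit. GAGAGA lay at 4 of the 8 member summits, against 32.2% of all.

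An IDR summit lay near few CACGTG sites, in the windows as in the genome. The 7 windows held 15 such sites, of which 1 (6.67%) lay within 50 bp of an IDR summit, against 390 of the 17729 sites in the nuclear genome (2.20%). Further sites of hif-1 lay 1515, 1581 and 1664 bp downstream of its start, in the gene, and the middle of the nearest was 331.5 bp from the intronic summit. At rhy-1 a site 106 bp upstream of the start had its nearest pooled summit 206.5 bp from its middle, with a signal of 14.5. A second rhy-1 site, 1977 bp downstream of the start, lay 79.5 bp from the pooled summit of 17.8, whose −log10 q was 2.01, and inside that peak. The window of cul-2 held 5 sites, more than that of hif-1 with 4, and no IDR summit. The window of cysl-1 held 0 CACGTG sites and 2 IDR summits.

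The strongest summits of hif-1 and egl-9 had a base composition between the quartiles of the IDR set. Of the 101 bases around the summit, 49.5% were G or C at the strongest hif-1 peak and 45.5% at the egl-9 peak, against a median of 47.5% over IDR summits. The cysl-1 peaks lay on opposite sides of that range, at 53.5% for the stronger, above the upper quartile of 52.5%, and 36.6% for the weaker, below the lower quartile of 42.6%.

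Genes around the pathway were looked at through lists of related genes, and 12 of 36 had an IDR summit in the window (33.3%, against 14.4% of all genes). These lists were drawn up with earlier results of the data known, and 14 of the 36 genes, 3 of the 12 with a summit, have windows in the longest quartile. The 12 genes had 16 summits with signals from 37.6 to 117, the best at rank 271, so none approached the strongest hif-1 and egl-9 peaks. For 10 of the 16, and 8 of the 12 genes, the gene itself had the nearest protein-coding start. CACGTG lay at 4 of the 16, against 17.2% of all IDR summits.

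Cysteine and hydrogen sulfide metabolism, to which cysl-1 is related, had 6 of 11 genes with a summit, against 14.4% of all genes. The cysteine dioxygenase gene cdo-1 had a summit 820 bp upstream, in an exon of its neighbour lgl-1, with CACGTG and a signal of 19.6 in replicate 1, 67.1 in replicate 2 and 85.8 in the pooled list. The sulfite oxidase gene suox-1 had a summit 392 bp upstream, also with CACGTG, at 27.9, 45.2 and 73.8. Its second summit, 4633 bp upstream at 64.9 in the pool and without CACGTG, lay nearer another gene's start. The cystathionine gamma-lyase gene cth-2 had one 1428 bp upstream at 34.8, 26.5 and 50.4. The summits of cysl-2, ethe-1 and cbs-1, with pooled signals of 59.3, 58.8 and 48.3, had another gene's start nearer, and that of cbs-1 had CACGTG. The list's sulfide quinone oxidoreductase gene, sqrd-1, had no IDR summit.

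Of 8 genes known to respond to hypoxia or HIF-1 in worms, 3 had a summit (14.4% of all genes), each within 300 bp upstream of the start. The nuclear receptor gene nhr-57, a HIF-1 target, had one 115 bp upstream with ACGTG and a signal of 12.3 in replicate 1 (rank 2400), 31.7 in replicate 2 (rank 1127) and 46.6 in the pool. The flavin monooxygenase gene fmo-2 had one 179 bp upstream with CACGTG at 12.0, 25.4 and 38.4. Replicate 1 ranked these 2 peaks outside its top list and replicate 2 inside. The nuclear receptor gene nhr-49 had one 300 bp upstream at 23.2, 55.6 and 78.5, in the top list of both.

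Of 4 partners of the VHL ligase, elc-1, an elongin C gene, had a summit, 1686 bp upstream at 81.8 in the pool and nearer to another gene's start. The EGL-9 partner gene swan-1 had none. Among 4 other PAS domain genes the period homolog lin-42 had 3 summits within its long gene, the highest at 117. Among 8 genes of oxygen-sensing neurons, which are few cells of the animal, the guanylate cyclase gene gcy-33 had 2, of which the nearer lay 365 bp upstream at 71.0. Over all genes 14.4% had an IDR summit.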

How the data were processed

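Whole L2 larvae were assayed by ChIP-seq in 2 biological replicates, and fragments were sized 150 to 350 bp, per the labels. The authors deposited peak lists with a signal value and a −log10 q-value per peak, both in the unit of their own peak caller. The sources used here do not give the aligner, caller, IDR threshold or depth, so precision is limited to the spread of 2 replicates. Per the file names, the relaxed lists hold peaks and background as input for IDR. The 4 ce11 lists were used and the 4 ce10 lists were not. Genes came from Ensembl release 115 (WBcel235) and sequence from the RefSeq copy of that assembly.

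Summits were assigned to genes by position, both strands within 50 bp of a summit were searched for motifs, and shared peaks overlap by at least 1 bp. Distances run to the outermost annotated start. Members and lists were chosen with earlier results of these data known. Named genes are the members, genes at their summits, rank neighbours and list genes with an IDR summit. Peaks were described with no test. Assignment and motif search were tested on simulated positions. Alternatives varied window, assignment, threshold, motif window, overlap and replicate. Python 3.11.15, numpy 2.4.6, pandas 2.3.3 and matplotlib 3.10.9 were used.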

Additional observations from a re-analysis of the deposited data

How the results depend on the processing

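With each summit given only to the nearest start, 2 members (hif-1 and egl-9) and 4 summits remained, 7.55% of genes had a summit, and summed signal was 623 for hif-1 and 0 for aha-1 and cysl-1. With 2 kb upstream 3 members had a summit (9.75% of genes), with 4 summits in all. The sums were then 175 for hif-1, whose strongest peak lies just outside, and 0 for cysl-1. With 10 kb upstream vhl-1 gained a peak of 54.3, which made 5 members (20.9% of genes). Without gene bodies hif-1 came to 567 (12.6%), and with peak overlap the share of genes was 14.9%. The 500 highest-signal IDR peaks left 3 members (3.59% of genes) and 4 summits, with 572 for hif-1, 109 for cysl-1 and 0 for aha-1. The 1000 highest left 3 members (7.30% of genes) and 5 summits. Pooled peaks of −log10 q of at least 2 gave 28.0%. CACGTG lay at 0 member summits within 25 bp, at 2 with the whole peak and at 2 with CATGTG added. Leaving out a replicate meant using the other replicate's top list in place of the IDR set, which was not rebuilt. This gave 4 members each time, 6 to 9 summits, 0 to 1 with CACGTG, and 14.2% to 14.4% of genes. The cause of these moves was not tested. No paired analysis was possible because the replicates form 1 group. Of 82 alternative values, 55 stayed within the limits set and 27 moved. Unknown depth limits statements about vhl-1 and cul-2, where peaks were not detected in the IDR set.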
